A study of Mus musculus with 12 samples.

Results

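The genes described here encode 41 lysosomal hydrolases, membrane proteins and their helpers, listed by gene symbol with the cathepsins left out. All 41 were found among the 32688 genes of the count table, and all 41 passed the filter on low counts, among 18066 genes tested. RNA was sequenced from RAW264.7 cells, a mouse macrophage line, in 4 groups of 3 libraries. Null cells and CRISPR TFEB/TFE3 DKO cells, which carry a double knockout of the transcription factors TFEB and TFE3, were either left as controls or exposed for 8 h to 100 µM etoposide, a topoisomerase II poison that breaks DNA. Apart from the knockout and the drug the groups shared the parental line and the growth medium. The labels name 1 line for each genotype, so the 3 libraries of a group measure the spread between samples of that line, which may be technical, and not the spread between independently made lines. The titles of the DKO etoposide libraries include the word MEFs (mouse embryonic fibroblasts), whereas their other labels name RAW264.7.

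The lysosome degrades proteins, glycans, glycosaminoglycans, lipids and glycogen in an acidic lumen. Soluble hydrolases receive a mannose 6-phosphate tag in the Golgi that routes them there, and loss of a single hydrolase or transporter can cause a lysosomal storage disease. Macrophages rely on these enzymes to digest what they engulf. TFEB and TFE3 belong to the MiT family of transcription factors, which bind E-boxes near the start sites of lysosomal genes, an element known as CLEAR. The comparisons ask how these genes differ between Null and DKO cells, with and without DNA damage, and whether the response to the drug differs between the lines.

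Because the deleted factors bind E-boxes, the promoters of the members were read from the RefSeq table (build GRCm38.p6), which holds 300 bases for each start site, 250 before it and 50 after. The table had promoters for 38 of the 41 genes and none for Galns, Asah1 and Npc1. The letters CACGTG, a palindrome that reads the same on both strands, were present in promoters of 12 of the 38 genes (31.6%), against 8.09% of 27025 genes with a promoter in the table and 11.4% of the 10808 of these that were tested here. In the same 12 genes the core had a T before it or an A after it, the form TCACGTG on one strand or the other, found in 6.65% of the tested genes. Each longer form contains the shorter one. Both flanks together, TCACGTGA, were present in Mcoln1, Cln3, Clcn7, Gla and Gnptg, 13.2% of the 38 genes and 2.03% of the tested genes, and GTCACGTGAC in Cln3, against 0.759% of the tested genes. These are matches of letters, and binding was not measured.

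The whole promoters of Clcn7, Cln3, Gla and Mcoln1 are shown because each holds a pair of E-boxes and because their transcripts behaved differently in the comparisons that follow. Capitals mark the E-box with its matching flanks, and each sequence runs 5′ to 3′ on the strand of the gene. The positions are chr17:25133141-25133440 (plus strand) for Clcn7, chr7:126583187-126583486 (minus strand) for Cln3, chrX:134600956-134601255 (minus strand) for Gla and chr8:3500269-3500568 (plus strand) for Mcoln1.
Clcn7: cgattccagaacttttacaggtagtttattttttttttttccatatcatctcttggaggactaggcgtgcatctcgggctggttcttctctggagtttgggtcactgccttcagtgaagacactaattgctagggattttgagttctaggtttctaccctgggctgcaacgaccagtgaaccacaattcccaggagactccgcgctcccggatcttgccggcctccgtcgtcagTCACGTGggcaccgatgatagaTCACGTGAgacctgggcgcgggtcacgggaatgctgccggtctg
Cln3: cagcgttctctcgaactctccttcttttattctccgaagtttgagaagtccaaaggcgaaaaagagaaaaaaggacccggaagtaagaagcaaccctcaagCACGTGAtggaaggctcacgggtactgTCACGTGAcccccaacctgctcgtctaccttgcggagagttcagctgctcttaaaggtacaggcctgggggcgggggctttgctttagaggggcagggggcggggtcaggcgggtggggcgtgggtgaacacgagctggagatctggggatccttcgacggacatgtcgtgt
Gla: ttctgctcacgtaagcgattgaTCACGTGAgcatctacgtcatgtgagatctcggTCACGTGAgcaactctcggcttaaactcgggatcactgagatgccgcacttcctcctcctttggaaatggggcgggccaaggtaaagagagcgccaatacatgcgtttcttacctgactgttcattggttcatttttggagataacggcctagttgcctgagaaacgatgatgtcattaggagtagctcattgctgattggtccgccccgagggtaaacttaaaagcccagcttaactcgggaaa
Mcoln1: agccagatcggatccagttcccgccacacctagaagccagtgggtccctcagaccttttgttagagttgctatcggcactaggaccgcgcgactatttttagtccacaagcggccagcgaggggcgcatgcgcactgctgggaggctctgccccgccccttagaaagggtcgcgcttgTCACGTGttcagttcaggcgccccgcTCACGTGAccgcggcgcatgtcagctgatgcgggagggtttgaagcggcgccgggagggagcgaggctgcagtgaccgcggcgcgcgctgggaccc

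The promoters of the other 8 genes are shown as 40 bases around their first E-box, so that the flanks can be compared between genes that rose, fell or did not pass the test. The windows lie at chr8:13159083-13159122 (plus) for Lamp1, chr11:119267806-119267845 (plus) for Gaa, chr9:114401013-114401052 (plus) for Glb1, chr11:101070004-101070043 (plus) for Naglu, chr11:119355517-119355556 (minus) for Sgsh, chr15:89477418-89477457 (minus) for Arsa, chr12:102439119-102439158 (minus) for Lgmn and chr17:25240115-25240154 (minus) for Gnptg.
Lamp1: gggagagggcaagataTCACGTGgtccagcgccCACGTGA
Gaa: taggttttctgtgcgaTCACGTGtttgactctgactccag
Glb1: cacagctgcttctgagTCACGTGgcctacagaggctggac
Naglu: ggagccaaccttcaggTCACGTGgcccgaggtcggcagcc
Sgsh: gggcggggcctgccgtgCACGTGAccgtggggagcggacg
Arsa: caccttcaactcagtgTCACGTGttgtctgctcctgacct
Lgmn: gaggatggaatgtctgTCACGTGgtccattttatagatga
Gnptg: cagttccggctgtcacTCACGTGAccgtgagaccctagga

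**Figure D1:**
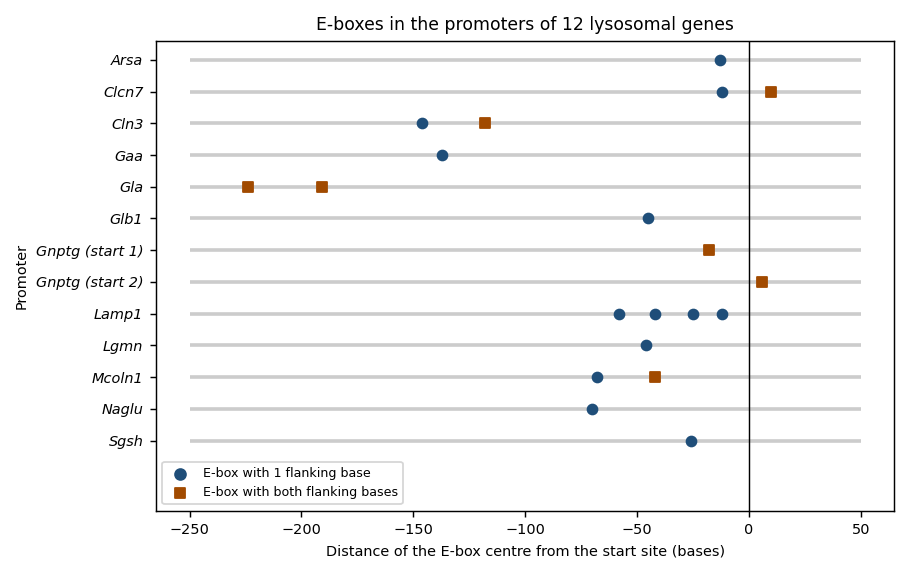
Position of each CACGTG E-box in the RefSeq promoters of the 12 lysosomal genes that hold one. The x axis is the distance of the E-box centre from the start site in bases, each grey line is 1 promoter, and Gnptg has 2 start sites. Lamp1 has 4 E-boxes between 58 and 12 bases before its start, and those of Gla lie farthest away, at 224 and 191 bases before it.

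The libraries held 29837255 to 61809316 counts, of which mitochondrial transcripts took 14.1% to 18.3% in Null control, 16.6% to 17.5% in DKO control, 19.4% to 21.7% in Null etoposide and 17.0% to 18.1% in DKO etoposide cells. The share was thus highest in Null cells after etoposide, and its part in the results was not tested. The 41 genes together took 0.513% to 0.689%. The lowest count of any member in a library was 45, for Cd63 in Null control cells, and the lowest of any other member was 306, for Ctns. Tfe3 lay between 31.5 and 42.5 CPM (gene counts relative to the TMM-scaled library size) in DKO libraries and between 89.4 and 119 CPM in Null libraries. Tfeb lay between 3.14 and 5.25 CPM in DKO libraries, between 16.6 and 17.2 CPM in Null control and between 7.10 and 7.95 CPM in Null etoposide libraries, so transcripts of both genes were lower but present in DKO cells. All 8 macrophage markers examined were detected in every group, with summed levels of 4190 to 5130 CPM, and the 8 fibroblast markers together reached at most 2.07 CPM in any library and 1.22 CPM in the DKO etoposide libraries. The number of fibroblast markers at 0 in all libraries of a group was 6 for Null control, 5 for DKO control, 1 for Null etoposide and 0 for DKO etoposide. Between genotypes, 2 of the 8 macrophage markers were called higher and 4 lower in DKO control cells, and 2 higher and 2 lower after etoposide, where Spi1 differed by 1.01, Ptprc by 0.42, Itgam by -0.40 and Fcgr1 by -2.84 (limma-trend, log2). The part of these markers in the results that follow was not tested. In bulk RNA, fewer cells of a kind and less RNA per cell cannot be told apart.

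The first control library of each line was an extreme for a set of members, and in opposite directions. For Cd68, the macrophage relative of the LAMP proteins, Null control libraries held 862, 632 and 475 CPM and DKO control libraries 561, 996 and 1060 CPM. Replicate 1 was thus the highest in Null cells and the lowest in DKO cells, and the groups overlapped. In DKO cells replicate 1 stood apart from the others, whereas the Null libraries fell in steps. Cd68, Neu1, Arsb and Tpp1 differed by 1.5 times or more between the highest and the lowest Null control library, the same 4 with Idua and Lipa did so in DKO control cells, Arsb and Tpp1 in DKO etoposide cells, and no member in Null etoposide cells. The median ratio of highest to lowest was 1.18 in both control groups, 1.07 among Null and 1.13 among DKO libraries after etoposide. With both first control libraries left out the test called 8 members higher in DKO control cells, Cd68, Scarb2, Hexa and Neu1 among those gained, an alternative added after these values were seen. If counting ignored strand, part of the counts of some members could come from overlapping genes on the other strand: up to 15.0% for Acp2 (Ddb2), 11.03% for Gnptg (Unkl), 9.15% for Ostm1 (Gm15200) and 6.75% for Npc1 (Rmc1), with larger shares given beside the gene.

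On a scale that allows comparison between genes, CPM per kilobase of exon, the members spanned a wide range. In Null control cells their median was 12.4 CPM per kb, against 3.46 over all genes tested. Cd68 was the highest at 522 CPM per kb, followed by Lamp1 (246) and Laptm5 (240), whose means lay within the spread of their libraries, and then Lgmn (176) and Psap (122). Cd63, a tetraspanin of late endosomes and lysosomes, was the lowest at 0.461 CPM per kb, below Ostm1 (3.35) and Mcoln1 (3.47). In DKO control cells Cd63 stood at 5.37 CPM per kb, a level within the range of the other membrane proteins.

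**Figure D2:**
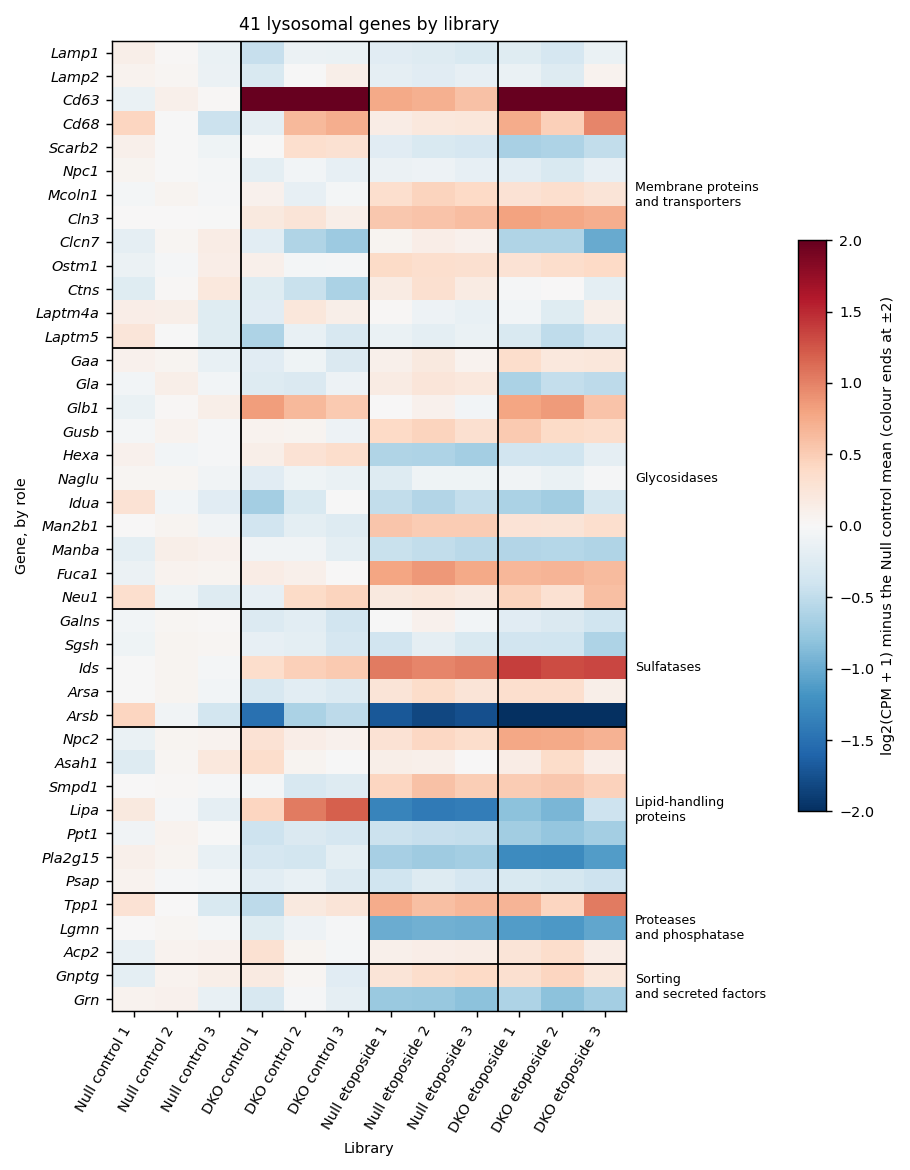
Level of each of the 41 genes (y axis, by role) in each of the 12 libraries (x axis), as log2(CPM + 1) minus the mean of the 3 Null control libraries, with the colour scale ending at ±2. Cd63 is high in all 6 DKO libraries, Arsb and Lipa are low in the etoposide libraries of both lines, and most other genes keep within 1 unit of the Null control mean.

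The first comparison was between genotypes. In control cells 5 of the 41 genes were higher in DKO than in Null cells and 8 were lower (limma-trend with Benjamini-Hochberg adjustment over all genes tested, adjusted p under 0.05), which is 31.7% of the members against 19.3% of all genes tested (10.9% higher, 8.39% lower). In etoposide-treated cells 7 were higher and 7 lower, 34.1% against 33.6% of all genes (15.9% higher, 17.8% lower). Within 0.5 on the log2 scale lay 36 members in control cells, 87.8% beside 76.6% of all genes tested. After etoposide 33 members did, 80.5% beside 67.5% of all genes. The median difference was -0.12 in control cells and 0.00 after etoposide, beside medians over all genes of 0.00 and -0.01. Of the members called, 10 were called in the same direction under both conditions (24.4% of the 41, beside 13.5% of all genes tested), namely Cd63, Cln3, Glb1, Ids and Lipa (higher in DKO) and Clcn7, Man2b1, Galns, Ppt1 and Pla2g15 (lower in DKO). Across the 41 genes the 2 differences, which share no libraries, had a Pearson correlation of 0.944, over genes that are not independent. Cd63 lay at 3.50 and 3.12 and all other members between -0.89 and 0.89. The coefficient therefore depends heavily on Cd63, and it was not computed without that gene. Ctns, Arsa and Arsb (lower) were called in control cells alone, and Hexa and Npc2 (higher) and Scarb2 and Gla (lower) after etoposide alone, of which Scarb2 and Gla also passed the test of the difference between conditions given further on and the other 5 did not. The remaining 24 members, Lamp1, Lamp2, Mcoln1 and Gaa among them, were called in neither condition.

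The lower calls in control cells depended on single libraries and on scaling. Without Null control replicate 2 the test called 1 member lower, without Null control replicate 1 it called 5 and without DKO control replicate 3 it called 4. Scaling by library size alone, which moved the median of all genes to -0.08, gave 4 higher and 18 lower. Cd63, Glb1, Ids, Lipa and Ppt1 were called in control cells under each of the 23 alternatives computed. After etoposide 10 of the 14 calls were kept under each, and Scarb2, Cln3, Man2b1 and Lipa were lost under at least 1.

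Among the 13 membrane proteins and transporters, 2 were higher and 2 lower in DKO cells in each condition, 30.8% called, beside 19.3% of all genes in control cells and 33.6% after etoposide. Cd63 (chromosome 10, 128900989 to 128912822, GRCm38) lay at 1.46, 1.90 and 1.73 CPM in Null control and at 18.8, 19.2 and 21.3 CPM in DKO control libraries. After etoposide it was at 3.55, 3.39 and 3.05 CPM in Null and at 29.9, 30.3 and 28.1 CPM in DKO libraries. Every DKO library was above every Null library by a wide margin, and the log2 difference was 3.50 in control cells (SE 0.113, adjusted p 5.95e-10) and 3.12 after etoposide (adjusted p 7.43e-10). No other member differed by 1 or more on this scale.

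Clcn7 (chromosome 17, 25133391 to 25162104) encodes the chloride and proton exchanger of the lysosomal membrane. It was at 26.8, 31.6 and 34.0 CPM in Null control, 26.4, 19.9 and 18.2 CPM in DKO control, 31.8, 33.8 and 32.6 CPM in Null etoposide and 19.8, 19.9 and 14.7 CPM in DKO etoposide libraries. The groups met closely in control cells, where DKO replicate 1 nearly reached Null replicate 1, and were well apart after etoposide. The log2 difference was -0.53 in control cells (SE 0.151, adjusted p 0.0259) and -0.86 after etoposide (adjusted p 0.000732). The control call was lost without Null control replicate 2 or 3 or DKO control replicate 2 or 3, with values from -0.80 to -0.42 and adjusted p up to 0.108 over all alternatives. Ostm1, the partner subunit of that exchanger, lay at 22.3 to 26.6 CPM in all 6 control libraries and differed by 0.01 between genotypes (adjusted p 0.942, 95% confidence interval -0.16 to 0.19).

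Ctns (chromosome 11, 73183596 to 73199042), the cystine exporter, was at 12.5, 15.2 and 17.5 CPM in Null control and 12.5, 10.7 and 9.33 CPM in DKO control libraries. The groups touched at replicate 1 and the log2 difference was -0.47 (adjusted p 0.0309). The call was lost without replicate 2 or 3 of either control group, with values from -0.72 to -0.35 and adjusted p up to 0.127 over all alternatives. After etoposide Ctns was at 16.8, 18.8 and 16.9 CPM in Null and 14.6, 15.0 and 12.9 CPM in DKO libraries, groups that did not overlap, with a difference of -0.31 that did not pass (adjusted p 0.108). Cln3, the membrane protein lost in juvenile Batten disease, was higher by 0.19 in control cells (adjusted p 0.0402) and by 0.20 after etoposide (adjusted p 0.0251). The overlapping gene Apobr could supply up to 16.8% of its counts, and with these removed the differences were 0.15 (adjusted p 0.175) and 0.08 (adjusted p 0.431), within ranges of 0.11 to 0.23 and 0.08 to 0.22 over all alternatives. The control call was lost under 17 of the 23 alternatives, among them leaving out any 1 library except DKO control replicate 3, and the etoposide call under 8, among them leaving out any 1 Null etoposide library or DKO etoposide replicate 1 or 2 (adjusted p up to 0.282 and 0.431).

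Lamp1, Mcoln1 and Laptm5, which the study's text names, did not pass between genotypes in the main test. The study measured induction of Lamp1 and Mcoln1 by starvation in MEFs lacking p53, and reported lower Laptm5 in etoposide-treated TFEB/TFE3 DKO MEFs. Those are other cells, and for Lamp1 and Mcoln1 another genotype and stress, so the values here do not repeat those experiments. Lamp1 (chromosome 8, 13159161 to 13175338), the most used lysosomal marker, was at 715, 664 and 596 CPM in Null control, 476, 605 and 599 CPM in DKO control, 559, 550 and 529 CPM in Null etoposide and 556, 520 and 598 CPM in DKO etoposide libraries. The genotypes overlapped in both conditions, with log2 differences of -0.24 (adjusted p 0.143) and 0.03 (adjusted p 0.853). The first passed under library size alone (-0.32 to -0.08, adjusted p 0.0347 to 0.457 over all alternatives). Mcoln1 (chromosome 8, 3500457 to 3515232), the calcium channel TRPML1, was at 25.6, 27.2 and 25.8 CPM in Null control and 28.0, 23.2 and 25.5 CPM in DKO control libraries, with a difference of -0.04 (95% confidence interval -0.21 to 0.13, adjusted p 0.802). After etoposide its difference was -0.11 (adjusted p 0.332), between groups that did not overlap. Laptm5 (chromosome 4, 130913125 to 130936141), a transmembrane protein of blood cell lysosomes, was at 1070, 896 and 761 CPM in Null control, 584, 812 and 717 CPM in DKO control, 822, 788 and 819 CPM in Null etoposide and 725, 630 and 681 CPM in DKO etoposide libraries. Its groups overlapped in control cells and not after etoposide, and the differences of -0.37 (adjusted p 0.0787) and -0.26 (adjusted p 0.164) did not pass, although the first passed without Null control replicate 3 or without DKO control replicate 2 and under library size alone (-0.49 to -0.13, adjusted p 0.0234 to 0.291 over all alternatives). The second passed with the 2 groups alone and with both first control libraries left out (-0.30 to -0.20, adjusted p 0.00749 to 0.37 over all alternatives).

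**Figure D3:**
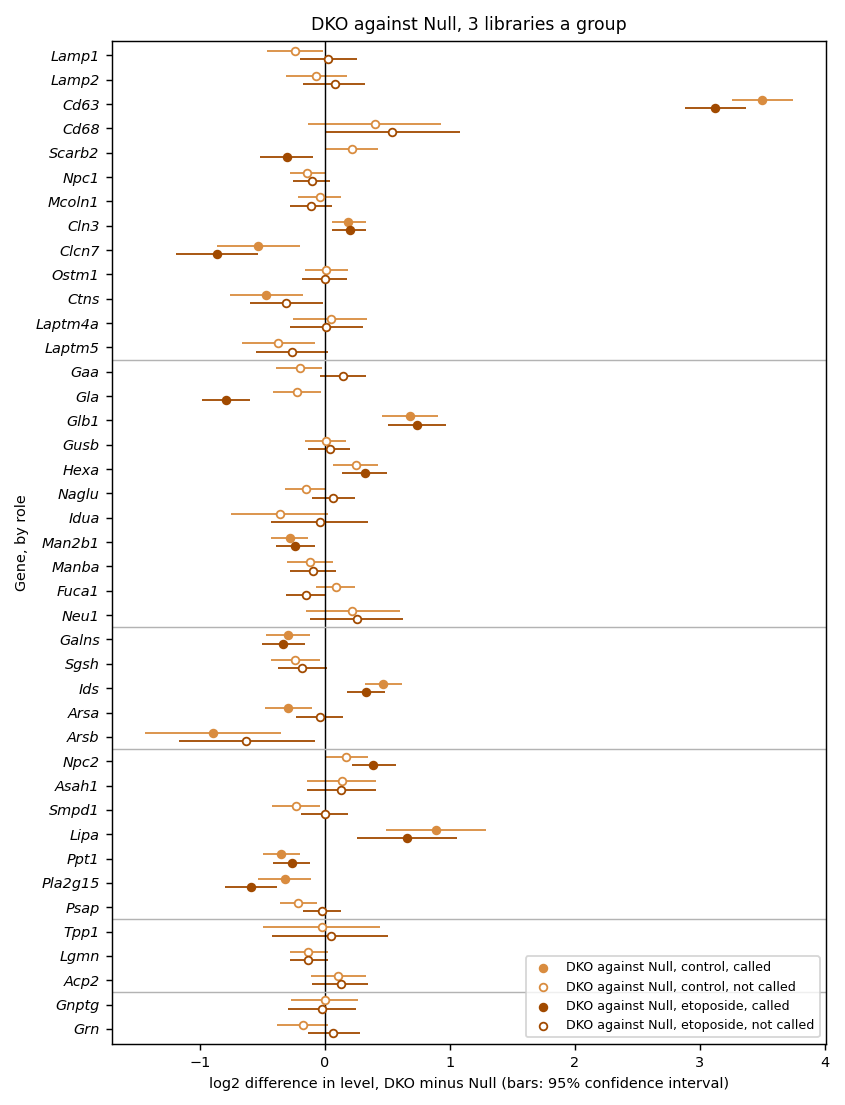
Log2 difference in level between DKO and Null cells (x axis) for each gene (y axis, by role), in control cells (light) and after etoposide (dark), with bars for the 95% confidence interval from 3 libraries a group. Filled points passed the test and open points did not. Cd63 lies above 3 in both conditions and all other genes lie between -0.89 and 0.89.

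Among the 11 glycosidases, which trim sugars from glycoproteins, glycolipids and glycogen, Glb1 was the member higher in DKO control cells and Man2b1 the member lower (18.2% called, beside 19.3% of all genes). After etoposide 2 were higher and 2 lower, 36.4% beside 33.6%. Glb1 (chromosome 9, 114401076 to 114474898), the β-galactosidase, was at 28.4, 31.9 and 34.0 CPM in Null control and 56.6, 49.8 and 45.5 CPM in DKO control libraries, and at 31.4, 33.3 and 30.2 CPM in Null and 54.9, 57.6 and 46.8 CPM in DKO etoposide libraries. All 6 DKO libraries were above all 6 Null libraries, with log2 differences of 0.68 (SE 0.105, adjusted p 0.000431) and 0.74 (adjusted p 0.000148). Man2b1, an α-mannosidase, differed by -0.28 and -0.24 (adjusted p 0.0125 and 0.0198). Its calls were lost without Null control replicate 2 and, after etoposide, without any 1 Null etoposide library or DKO etoposide replicate 1 or 2 (adjusted p up to 0.114 and 0.0779 over all alternatives). Hexa, the α subunit of β-hexosaminidase, passed after etoposide (0.32, adjusted p 0.0105), and its difference of 0.25 in control cells did not (adjusted p 0.0565).

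Of the 5 sulfatases, which remove sulfate from glycosaminoglycans and sulfatide, Ids was higher and Galns, Arsa and Arsb were lower in DKO control cells, 80.0% called beside 19.3% of all genes. After etoposide Ids was higher and Galns lower, 40.0% beside 33.6%. Ids (chromosome X, 70343069 to 70365084), iduronate 2-sulfatase, was at 26.4, 27.8 and 25.9 CPM in Null control, 34.2, 37.7 and 39.0 CPM in DKO control, 56.0, 53.7 and 55.0 CPM in Null etoposide and 70.9, 67.1 and 69.2 CPM in DKO etoposide libraries. The 4 groups did not overlap, and the genotype differences were 0.47 (adjusted p 0.000305) and 0.33 (adjusted p 0.00246). Galns (chromosome 8, 122578242 to 122611463) was at 26.5, 28.5 and 28.1 CPM in Null control, 22.8, 23.8 and 21.1 CPM in DKO control, 27.6, 29.4 and 26.6 CPM in Null etoposide and 23.4, 22.4 and 20.7 CPM in DKO etoposide libraries. The lines did not overlap in either condition, with differences of -0.29 (adjusted p 0.0201) and -0.33 (adjusted p 0.00673). Arsa, arylsulfatase A, differed by -0.29 in control cells (adjusted p 0.0385) and -0.04 after etoposide (adjusted p 0.781), and its control call was lost under 9 of the 23 alternatives (-0.37 to -0.26, adjusted p up to 0.143), among them leaving out each control library except DKO control replicate 2, and Null etoposide replicate 2 or 3. The control call of Galns was lost without Null control replicate 2 or 3 or DKO control replicate 3 (-0.38 to -0.25, adjusted p up to 0.0956 over all alternatives).

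Arsb (chromosome 13, 93771630 to 93943016), arylsulfatase B, had the widest ratio of highest to lowest library among members in DKO control cells, 1.97. It was at 260, 185 and 150 CPM in Null control and 68.0, 124 and 134 CPM in DKO control libraries, and at 58.7, 54.3 and 56.6 CPM in Null and 37.1, 29.5 and 44.6 CPM in DKO etoposide libraries. The groups did not overlap in either condition, and the first replicates were the extremes in control cells. The differences were -0.89 (SE 0.251, adjusted p 0.0245) and -0.63 (adjusted p 0.0742). The control call was lost without Null control replicate 1 or 2 or DKO control replicate 1, with values from -1.08 to -0.39 and adjusted p up to 0.113 over all alternatives. The gene Gm26527 lies with all of its exon bases inside exons of Arsb on the opposite strand. It held 26439 counts of its own over the 12 libraries. If counting ignored strand, its read density could account for 48.0% of the Arsb counts. With that share removed the differences were -0.98 in control cells and -0.77 after etoposide, and both passed (adjusted p 0.000308 and 0.00123, on ranges up to 0.113 and 0.234 over all alternatives).

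Of the 7 lipid-handling proteins, Lipa was higher and Ppt1 and Pla2g15 were lower in DKO cells in both conditions, with Npc2 also higher after etoposide. These were 42.9% of the group in control cells and 57.1% after etoposide, beside 19.3% and 33.6% of all genes. Lipa (chromosome 19, 34492318 to 34527474), the acid lipase that frees cholesterol from its esters, was at 529, 456 and 410 CPM in Null control and 622, 949 and 1060 CPM in DKO control libraries. After etoposide it was at 185, 172 and 176 CPM in Null and 261, 244 and 347 CPM in DKO libraries. DKO libraries were above Null libraries in both conditions, with differences of 0.89 (SE 0.183, adjusted p 0.00389) and 0.66 (adjusted p 0.0147). The second call was lost without Null etoposide replicate 2 or DKO etoposide replicate 3 (0.51 to 0.77, adjusted p up to 0.0678 over all alternatives).

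Ppt1 (chromosome 4, 122836242 to 122859175), a thioesterase that removes palmitate from proteins, was at 247, 272 and 257 CPM in Null control and 193, 212 and 205 CPM in DKO control libraries, with a difference of -0.35 (adjusted p 0.00215). It was lower by 0.26 after etoposide (log2 difference -0.26, adjusted p 0.00828), and the overlapping Cap1 could supply up to 16.1% of its counts. Pla2g15 (chromosome 8, 106150399 to 106164715), the lysosomal phospholipase, was at 18.1, 17.5 and 15.2 CPM in Null control and 13.2, 12.8 and 14.6 CPM in DKO control libraries, and at 10.3, 9.87 and 10.2 CPM in Null and 6.51, 6.42 and 7.28 CPM in DKO etoposide libraries. Neither pair of groups overlapped, and the differences were -0.32 (adjusted p 0.0356) and -0.59 (adjusted p 0.000477). The first was lost under 10 of the 23 alternatives, among them without Null control replicate 1 or 2, DKO control replicate 1 or 2 and Null etoposide replicate 2 or 3 (-0.40 to -0.27, adjusted p up to 0.148). Npc2 (chromosome 12, 84754562 to 84773152), the soluble cholesterol carrier, was at 60.5, 66.0 and 63.0 CPM in Null etoposide and 85.0, 83.9 and 80.0 CPM in DKO etoposide libraries, a difference of 0.39 (adjusted p 0.00209), whereas its partner Npc1 differed by -0.10 (adjusted p 0.265).

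In the main test neither genotype comparison called a member of the last small groups, that is the proteases Tpp1 and Lgmn, the acid phosphatase Acp2, the phosphotransferase subunit Gnptg and progranulin (Grn). Their differences lay between -0.17 and 0.13 on the log2 scale. Lgmn was called in control cells under library size alone (adjusted p 0.0375).

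**Figure D4:**
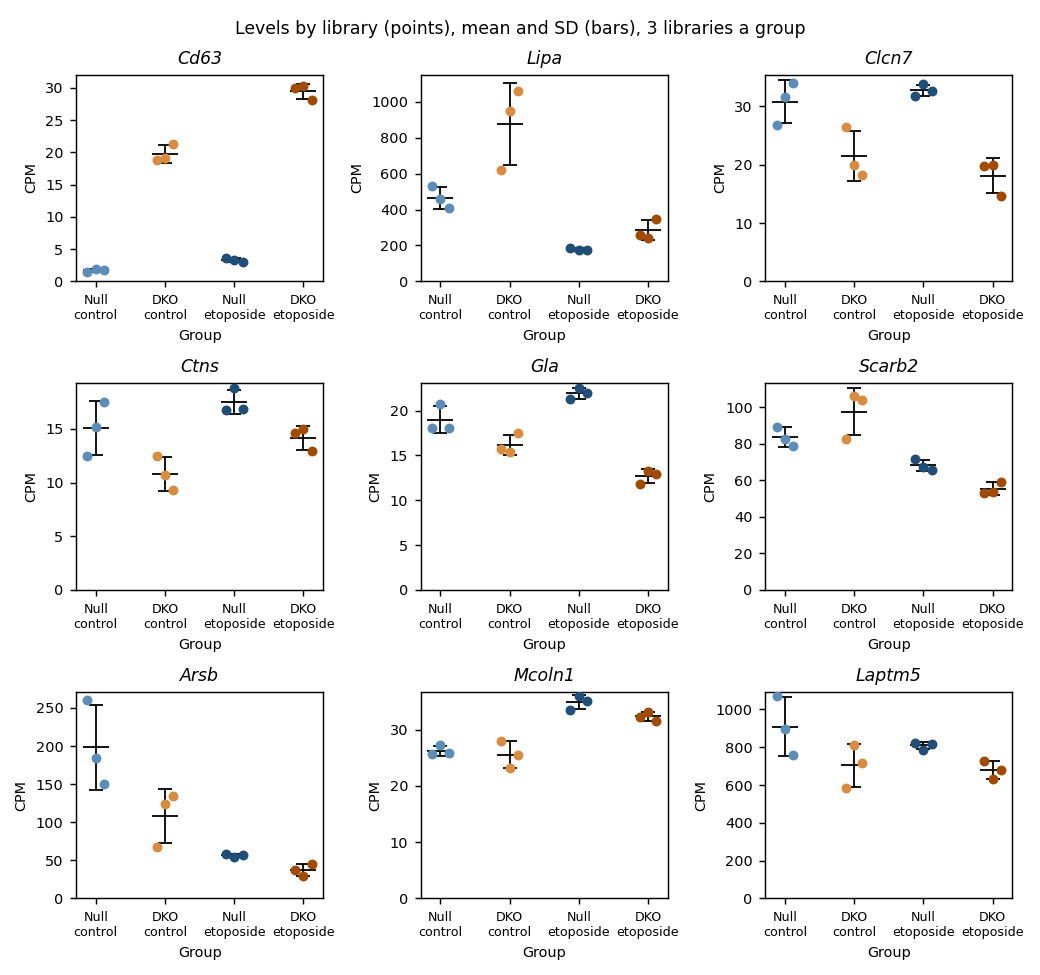
CPM (y axis, from 0) of 9 members in the 4 groups (x axis). Points are libraries, and bars are the mean and SD of 3 libraries. Cd63 is 18.8 CPM or more in every DKO library and 3.55 CPM or less in every Null library, Lipa and Arsb are lower after etoposide in both lines, and Gla and Scarb2 are lowest in DKO etoposide libraries.

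The second comparison asked how the same genes respond to DNA damage. In Null cells etoposide raised 13 members and lowered 12, and in DKO cells it raised 15 and lowered 10, 61.0% of the members in each line against 39.6% of all genes tested in Null cells (20.9% higher, 18.7% lower) and 39.3% in DKO cells (20.2% higher, 19.1% lower). The median response was 0.08 in Null and 0.07 in DKO cells, beside 0.03 over all genes in both lines. Within 0.5 on the log2 scale lay 63.4% of the members in Null and 61.0% in DKO cells, beside 63.1% and 64.1% of all genes. The members also lay higher in level, with medians of 12.4 against 3.46 CPM per kb in Null control cells. The part of level in the share called was not tested. Macrophage markers moved with the drug too, 1 of 8 higher and 4 lower in Null cells and 4 higher and 3 lower in DKO cells, among them Itgam (1.01 and 1.26), Csf1r (-1.19 and -0.60), Ptprc (-0.80 and -0.68) and Fcgr1 (-0.91 and -2.49). Their part in the responses was not tested. The median in Null cells was -0.01 without Null control replicate 1. In the same direction in both lines, 22 members were called, 13 higher and 9 lower, which is 53.7% of the members beside 26.8% of all genes tested. The responses of the lines, which share no libraries, had a Pearson correlation of 0.934 across the 41 genes, which are not independent.

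Of the 13 membrane proteins and transporters, 4 were called higher and 1 lower in Null cells (38.5%, beside 39.6% of all genes) and 5 higher and 1 lower in DKO cells (46.2%, beside 39.3%), with Cd63, Mcoln1, Cln3 and Ostm1 higher in both lines. Mcoln1 was at 33.5, 36.0 and 35.0 CPM in Null and 32.3, 33.2 and 31.5 CPM in DKO etoposide libraries, all above the 28.0 CPM that was the highest control value. Its response was 0.41 in Null (SE 0.0786, adjusted p 0.0012) and 0.34 in DKO cells (adjusted p 0.00403). Cd63 rose by 0.95 in Null cells (adjusted p 2.97e-05) and by 0.58 in DKO cells (adjusted p 0.00144). Lamp1 responded by -0.27 in Null (adjusted p 0.0586) and 0.00 in DKO cells (adjusted p 0.993), and Laptm5 by -0.15 and -0.04 (adjusted p 0.404 and 0.833). The Lamp1 response in Null cells passed under 5 of the 23 alternatives (-0.34 to -0.21, adjusted p 0.0116 to 0.167 over all alternatives).

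The hydrolases split. Of the 11 glycosidases, 3 were called higher and 3 lower in Null cells (54.5%) and 4 higher and 3 lower in DKO cells (63.6%). Sulfatases had 2 of 5 higher and 2 lower in Null cells (80.0%) and 2 higher and 1 lower in DKO cells (60%), and lipid-handling proteins had 2 of 7 higher in each line and 4 lower in Null (85.7%) and 3 lower in DKO cells (71.4%), beside the 39.6% and 39.3% of all genes. Ids rose most, by 1.04 in Null (SE 0.0686, adjusted p 2.08e-07) and 0.90 in DKO cells (adjusted p 5.16e-07), from the levels given above. Fuca1 (chromosome 4, 135920735 to 135940311), the α-fucosidase, went from 37.2, 42.9 and 42.1 CPM to 71.3, 74.6 and 69.5 CPM in Null cells and from 45.0, 43.7 and 40.7 CPM to 65.3, 65.5 and 63.3 CPM in DKO cells. Control and treated libraries did not overlap in either line, and the responses were 0.82 (adjusted p 2.54e-06) and 0.59 (adjusted p 4.11e-05). Man2b1 rose by 0.53 and 0.57, and Gusb, the β-glucuronidase, by 0.39 and 0.41 in Null and DKO cells.

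Smpd1 (chromosome 7, 105554360 to 105558389), the acid sphingomyelinase, went from 17.3, 17.5 and 17.0 CPM to 23.6, 26.3 and 24.8 CPM in Null cells and from 16.7, 13.6 and 14.2 CPM to 25.0, 25.4 and 24.2 CPM in DKO cells. Treated libraries were above control libraries in both lines, with responses of 0.52 (adjusted p 0.000427) and 0.75 (adjusted p 2.13e-05). Tpp1 (chromosome 7, 105744811 to 105752235), the tripeptidyl peptidase, went from 141, 115 and 93.0 CPM to 192, 175 and 183 CPM in Null cells and from 79.4, 131 and 138 CPM to 185, 154 and 238 CPM in DKO cells. The groups did not overlap although the libraries spread widely, and the responses were 0.68 (SE 0.213, adjusted p 0.0237) and 0.75 (adjusted p 0.0142). The DKO call was lost without DKO etoposide replicate 3 and the Null call without Null control replicate 2 or 3 or any 1 Null etoposide library, with adjusted p up to 0.0619 and 0.0899 over all alternatives.

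The largest falls exceeded the largest rises. Arsb fell by 1.77 in Null (adjusted p 0.000122) and by 1.51 in DKO cells (adjusted p 0.000425), and Lipa by 1.38 (adjusted p 7.36e-05) and 1.61 (adjusted p 1.91e-05). No etoposide library of either gene reached the lowest control library of its line. Lgmn (chromosome 12, 102394084 to 102439813), the asparaginyl endopeptidase, went from 411, 417 and 395 CPM to 204, 209 and 207 CPM in Null cells and from 343, 379 and 401 CPM to 187, 183 and 198 CPM in DKO cells. Its response was -0.98 in both lines (adjusted p 4.51e-07 and 3.25e-07), with little spread within each treated group. Pla2g15 fell by 0.74 and 1.00 (adjusted p 6.89e-05 and 4.48e-06), Grn by 0.78 and 0.53 (adjusted p 3.34e-05 and 0.000662) and Hexa by 0.64 and 0.57 (adjusted p 6.33e-05 and 0.000152), each in Null and DKO cells in that order. Manba, Ppt1 and Scarb2 were also lower in both lines, the call of Scarb2 in Null cells being lost under 5 alternatives.

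Npc2 (0.36 and 0.58), Arsa (0.32 and 0.57) and Gnptg (0.37 and 0.35) were also higher in both lines. A further 6 members passed in 1 line, which does not show that the lines differ. Idua, Sgsh and Psap fell in Null cells (-0.56, -0.30 and -0.33) and had -0.24, -0.24 and -0.15 in DKO cells. Ctns and Gaa, the α-glucosidase that digests glycogen, rose in DKO cells (0.39 and 0.47) and had 0.23 and 0.12 in Null cells. The Ctns call in DKO cells was lost under 10 of 23 alternatives, with adjusted p up to 0.148, and the calls of Gnptg in Null and DKO cells were lost under 11 and 10 with adjusted p up to 0.123 and 0.168. Leaving out DKO control replicate 2 was among those for all of these. In Null cells the call of Idua was lost without Null control replicate 1 or 2 or any 1 Null etoposide library (adjusted p up to 0.101), that of Sgsh without Null control replicate 2 or 3 or Null etoposide replicate 1 or 3 (up to 0.0709), and that of Arsa without Null etoposide replicate 2 (up to 0.0598). The 10 members called in no comparison of the main test were Lamp1, Lamp2, Cd68, Npc1, Laptm4a, Laptm5, Naglu, Neu1, Asah1 and Acp2. Of these, Lamp1, Cd68, Npc1, Laptm5, Naglu, Neu1 and Acp2 were called in some comparison under at least 1 alternative.

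**Figure D5:**
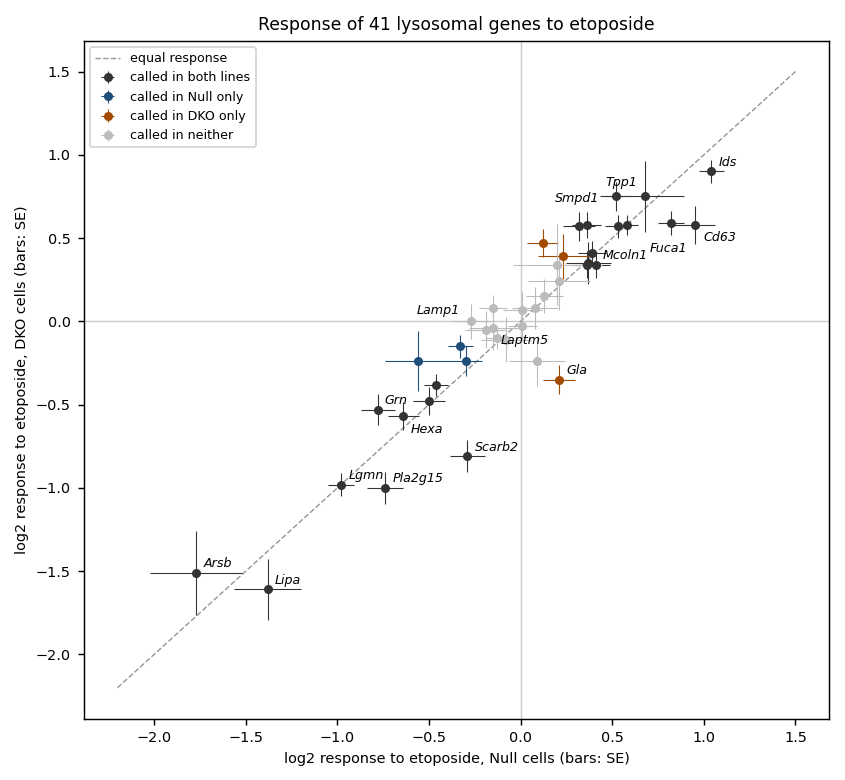
Log2 response to etoposide of the 41 genes in Null cells (x axis) and DKO cells (y axis), with bars for the SE. The dashed line marks equal responses, and colours give the line or lines in which a gene was called. The points follow that line, Arsb and Lipa at the lower end and Ids at the upper end, with Gla and Scarb2 below it.

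The third comparison tested the difference between the responses, that is the DKO response minus the Null response. It called 2 members lower, Gla and Scarb2, and 0 higher (limma-trend with Benjamini-Hochberg adjustment), 4.88% of the members against 9.45% of all genes (3.07% higher, 6.39% lower). At an unadjusted p under 0.05, 1 member was higher and 4 were lower, and of the other tools edgeR called 0 higher and DESeq2 called 1. Gla (chromosome X, 134588149 to 134601125), α-galactosidase A, which removes terminal galactose from glycolipids, was at 18.1, 20.7 and 18.1 CPM in Null control, 15.7, 15.4 and 17.5 CPM in DKO control, 21.3, 22.5 and 22.0 CPM in Null etoposide and 11.8, 13.3 and 12.9 CPM in DKO etoposide libraries. The treated libraries lay above the controls in Null cells and below them in DKO cells, without overlap. The response was 0.21 in Null (adjusted p 0.0709) and -0.35 in DKO cells (adjusted p 0.00645), and the difference was -0.57 (SE 0.123, adjusted p 0.0113), from -0.63 to -0.49 over the alternatives and called in each. After etoposide the genotypes differed in Gla by -0.79 (DKO minus Null, adjusted p 1.78e-05), against -0.22 in control cells (adjusted p 0.101).

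Scarb2 (chromosome 5, 92441314 to 92506833), the receptor LIMP-2 that carries glucocerebrosidase to the lysosome, was at 89.5, 82.7 and 78.8 CPM in Null control, 82.9, 106 and 104 CPM in DKO control, 71.6, 67.6 and 65.9 CPM in Null etoposide and 52.9, 53.9 and 59.4 CPM in DKO etoposide libraries. The genotypes overlapped in control cells and not after etoposide. It fell by 0.29 in Null (adjusted p 0.0311) and by 0.81 in DKO cells (adjusted p 2.92e-05), a difference of -0.52 (SE 0.137, adjusted p 0.0322). The Null call was lost without Null control replicate 1 or 2 or Null etoposide replicate 2 or 3 and with the replicate block (-0.34 to -0.24, adjusted p up to 0.106 over all alternatives). The call of the difference was lost under 11 of 22 alternatives, among them leaving out any 1 Null etoposide library, replicate 2 or 3 of either control group or DKO etoposide replicate 1 or 2, with values from -0.67 to -0.44 and adjusted p up to 0.116. Of members not called here, Cd63 had a difference of -0.38 (95% confidence interval -0.73 to -0.03, adjusted p 0.197), 1 of the 4 lower at an unadjusted p under 0.05, and Lipa -0.23 (-0.79 to 0.34, adjusted p 0.722). With both first control libraries left out, Lipa (-0.54, adjusted p 0.0438) and Npc2 (0.36, adjusted p 0.0137) were called, and over all alternatives their adjusted p reached 0.918 and 0.504.

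Set beside the promoters shown above, the members with an E-box gave mixed calls. Of the 12, 2 were higher in DKO control cells (Cln3, Glb1) and 2 lower (Clcn7, Arsa), 33.3% of the 12, with a median of -0.18. Of the 26 with a promoter and no such letters, 3 were higher and 5 lower, 30.8%, with a median of 0.00, beside 19.3% of all genes called. After etoposide 2 of the 12 were higher (Cln3, Glb1) and 2 lower (Clcn7, Gla), with a median of -0.03, and 5 of the 26 were higher and 4 lower, so that 33.3% and 34.6% were called, near the 33.6% of all genes. In the response to etoposide 4 of the 12 were higher and 2 lower in Null cells, 50% called with a median of 0.10, and 9 of the 26 were higher and 10 lower, 73.1% with a median of 0.02, beside 39.6% of all genes. In DKO cells 5 of the 12 were higher and 2 lower (58.3%, median 0.08) and 10 of the 26 were higher and 8 lower (69.2%, median 0.05), beside 39.3% of all genes. The difference between the 12 and the 26 was not tested. Mcoln1, Cln3, Clcn7, Gla and Gnptg, which hold the form with both flanks, were not called, higher, lower, not called and not called in control cells, in that order.

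A further list of 35 lysosomal genes, none of them a member, was followed in the same fit, of which 33 were tested. In control cells 9 of these were higher and 9 lower in DKO than in Null cells, 54.5% against 19.3% of all genes tested, and after etoposide 10 were higher and 5 lower, 45.5% against 33.6%. Etoposide raised 9 and lowered 9 in Null cells (54.5% against 39.6% of all genes) and raised 13 and lowered 7 in DKO cells (60.6% against 39.3%). The responses differed for 2 genes, 6.06% against 9.45%. Igf2r, the large mannose 6-phosphate receptor that sorts hydrolases, was at 37.1, 35.6 and 38.1 CPM in Null control and 189, 182 and 184 CPM in DKO control libraries (2.32, adjusted p 1.26e-10) and was higher by 2.02 after etoposide. Acp5, the tartrate-resistant acid phosphatase of osteoclasts and macrophages, was at 0.289 CPM or less in Null control and at 2.47 to 3.11 CPM in DKO control libraries (3.58, adjusted p 2.15e-06, and 3.63 after etoposide), differences that the prior count of 3 makes smaller for a gene this low. Slc11a1, the phagosomal metal transporter NRAMP1, was higher by 1.21 and 1.46 in DKO control and etoposide cells. Galc, the galactosylceramidase lost in Krabbe disease, was at 7.68, 7.93 and 8.51 CPM in Null control and 3.29, 2.93 and 3.20 CPM in DKO control libraries (-1.34, adjusted p 2.94e-06, and -1.49 after etoposide), and Slc36a1, a proton-coupled amino acid transporter, differed by -1.37 and -1.36. All of the genes named here from the further list kept their order between lines in both conditions, with DKO and Null libraries apart.

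Mitf, the relative of TFEB and TFE3 in the same family, was at 46.5, 52.7 and 50.4 CPM in Null control, 61.0, 59.6 and 58.5 CPM in DKO control, 26.8, 25.3 and 24.9 CPM in Null etoposide and 36.2, 40.0 and 38.2 CPM in DKO etoposide libraries. It was higher in DKO cells in both conditions, by 0.26 (adjusted p 0.0206) and 0.57 (adjusted p 4.94e-05), and lower after etoposide in both lines. Tfec, the other relative, did not pass the filter on low counts.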

How the data were processed

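RNA-seq gene counts were analysed from 12 libraries of RAW264.7 cells, grouped by their titles. According to the study's methods, the authors made stranded, ribosomal RNA-depleted total RNA libraries, aligned read pairs with HISAT2, kept unique pairs and used HTSeq with a GENCODE annotation to obtain gene counts. The submitters' processing notes list HISAT2, featureCounts and the build mm10, so the counter could not be settled, and the annotation release and strand setting are not given in the sources used here. Whether reads of overlapping genes on opposite strands were told apart is therefore not known, and unique mapping lowers counts of genes with near copies. The deposited table holds raw gene counts, neither normalized nor pooled. The labels call control cells untreated, whereas the methods name DMSO. They also name a pair of RNA kits without saying which library used which, so a kit effect cannot be told apart from the groups.

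Symbols and coordinates came from GENCODE M21 (GRCm38), which named 99.43% of 32688 identifiers. The filterByExpr function (edgeR 4.0.16, 4 groups) kept 18066 genes. Counts were scaled by TMM, converted to log2 CPM (prior count 3) and tested with limma 3.58.1 (limma-trend, robust) in R 4.3.3, with 1 model over 12 libraries and 5 contrasts. Tests were two-sided with Benjamini-Hochberg adjustment over all genes tested, with calls made at an adjusted p under 0.05. Intervals are at 95%. The share of a member's counts that an overlapping gene could supply was computed from that gene's read density. The fit was tested on simulated data. Replicates were checked for repeated libraries, and over pairs the squared difference was at least 3.4 times that of counting alone. Levels per library were given for the 4 members with the largest called differences in each direction between genotypes, the 3 in each direction for each response, the called members of the interaction, and Lamp1, Mcoln1 and Laptm5, which the study's text names. Genes of the further list were named where both genotype differences were called and at least 1 in size. One gene of the further list as first written was left out and is not analysed here. Members and lists were chosen with earlier results of these data known. Alternatives were other scalings, no filter, edgeR, DESeq2 1.42.0, a prior count of 0.5, no robust moderation, a replicate block, the 2 groups alone, and leaving out each library. Removal of overlapping counts and of both first control libraries was added after seeing the data.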

Additional observations from a re-analysis of the deposited data

Results flagged for a closer look

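The response to etoposide differed between the lines by the interaction test (limma-trend with Benjamini-Hochberg adjustment) for 2 members, 2 further lysosomal genes, Tfeb and 5 cell type markers. The members were Gla (-0.57 on the log2 scale, DKO response minus Null response) and Scarb2 (-0.52), described above. Of the further lysosomal genes, Nagpa, which uncovers the mannose 6-phosphate tag, differed by 0.38 (adjusted p 0.0253), and Igf2r by -0.30 (adjusted p 0.0445). Tfeb itself differed by 1.16 (adjusted p 0.00499), falling by 1.15 in Null cells and changing by 0.01 in DKO cells. Of the macrophage markers, Fcgr1 differed by -1.59 (adjusted p 1.00e-06), Csf1r by 0.59 (adjusted p 0.008) and Spi1 by 0.45 (adjusted p 0.0221), and of the fibroblast markers, none above 1.38 CPM in any library, Pdgfrb by 1.09 (adjusted p 0.034) and Pdgfra by a fitted -1.52 (adjusted p 0.0425), a value that depends on the prior count because Pdgfra was at 0 in all 6 control libraries.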

How the results depend on the processing

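No called difference of a member reversed under any of 23 alternatives, and the calls kept under each were 5 of 13 (DKO against Null, control), 10 of 14 (the same after etoposide), 19 of 25 (response of Null cells), 22 of 25 (response of DKO cells) and 1 of 2 (interaction). The number of members lower in DKO control cells moved most, from 8 to 18 with library size alone (median -0.20 instead of -0.12), 5 with no filter, 5 with the replicate block and 1 with the 2 groups alone. Library size alone moved the median response of DKO cells from 0.07 to 0.13. With both first control libraries left out, 8 instead of 5 members were higher in DKO control cells, 11 instead of 7 lower after etoposide, the median response of Null cells was -0.02, and in the interaction 1 member was higher (Npc2) and 3 instead of 2 lower (Lipa added). DESeq2 also gave 1 there, and no filter and the replicate block each gave 1 lower instead of 2. The cause of these changes was not tested.

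Leaving out 1 library at a time gave 4 to 7 higher and 1 to 10 lower members in control cells (medians -0.16 to -0.06), 5 to 8 and 5 to 8 after etoposide (-0.03 to 0.01), 10 to 13 and 9 to 13 for the Null response (-0.01 to 0.10), 13 to 16 and 10 to 11 for the DKO response (0.04 to 0.08), and 0 to 1 and 1 to 2 for the interaction (0.02 to 0.10). The lower count of the interaction was 1 without replicate 2 or 3 of either control group, any 1 Null etoposide library, or DKO etoposide replicate 1 or 2, and its higher count was 1 without Null control replicate 3. The labels do not say whether replicate numbers pair the samples. Deviations of same-numbered libraries correlated from -0.542 to 0.394 across pairs of groups, which does not settle it. The replicate block thus rests on the number alone. Counting error was small at these depths, and the 3 libraries a group and 1 line a genotype set the limits.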
